A study of Brassica napus with 3 samples.

Results

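Pseudochromosome 10 of the B. rapa reference carried 1691 summits of H3K4me3 peaks in a control canola line and 1900 in the selected line PEG1. These are all the summits whose sequence name ends in Chr10 in the lists of both lines, 3591 of the 59136 summits listed on the B. rapa reference. A summit is the base at which a peak of ChIP-seq reads is highest. Canola, Brassica napus, joins an A subgenome of the B. rapa lineage with a C subgenome of the B. oleracea lineage. Both groups were leaf 4 of untreated plants, 26 days old, grown on agar and then in soil; L. spp. oleifera (Metzg) Sinsk. f. biennis was the cultivar of both. The groups were the control line and the PEG1 selected epiline, which the series presents as the outcome of selection for energy use efficiency and drought tolerance. Chromatin from 1.5 g of tissue was digested with micrococcal nuclease without crosslinking and precipitated with an antibody against H3K4me3. Each line had 1 library, and the sources used here do not say how many plants went into it.

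H3K4me3, trimethylated lysine 4 of histone H3, sits on the first nucleosomes downstream of the start of transcribed genes and is written by SET-domain methyltransferases such as the ATX proteins of Arabidopsis. In plants it marks gene-rich euchromatin, while transposon-rich heterochromatin around centromeres carries little of it. Summits were not assigned to genes here, because an annotation of this build was not used, so regions are named by coordinates and leaf marker genes could not be looked up. Coordinates are 1-based positions on the BGI pseudochromosomes version V1 of BR5307. The sources used here do not say whether number 10 of that build equals chromosome A10.

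The first summit lay at 3484 in the control and at 4140 in PEG1, and the last at 15892422 and 15892386. PEG1 had 209 summits more than the control, a ratio of 1.12 (95% exact conditional interval 1.05 to 1.2). The PEG1 list was also the longer one over the whole reference, with 31464 summits against 27672. A cut to equal lengths therefore holds the ratio near 1 by construction and cannot tell why PEG1 had more. When the PEG1 list was shortened to its best-scored summits, as many over the whole reference as the control list holds, 1676 PEG1 summits were left here and the ratio was 0.991 (0.926 to 1.06). With 1 library per line no difference between the lines has a replicate check and no p-value is given, and all intervals cover counting error only.

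The marked sites were densest over the first 4 Mb. Up to the last summit, 31 full windows of 500 kb fitted. In the first 8 windows the control had 70 to 89 summits per window and PEG1 71 to 99. In the next window, from 4000001 to 4500000, the counts fell to 42 and 45. From there on the control had 13 to 66 summits per window and PEG1 18 to 74. The mean per window was 81.3 before and 44.7 after that point in the control, and 87.6 and 51.5 in PEG1. The first 8 windows made up 25.2% of the length up to the last summit and held 38.4% of the control and 36.9% of the PEG1 summits. The boundary at 4 Mb was chosen after the counts were seen. In the control the ranges on its sides did not overlap, and in PEG1 they did.

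**Figure D1:**
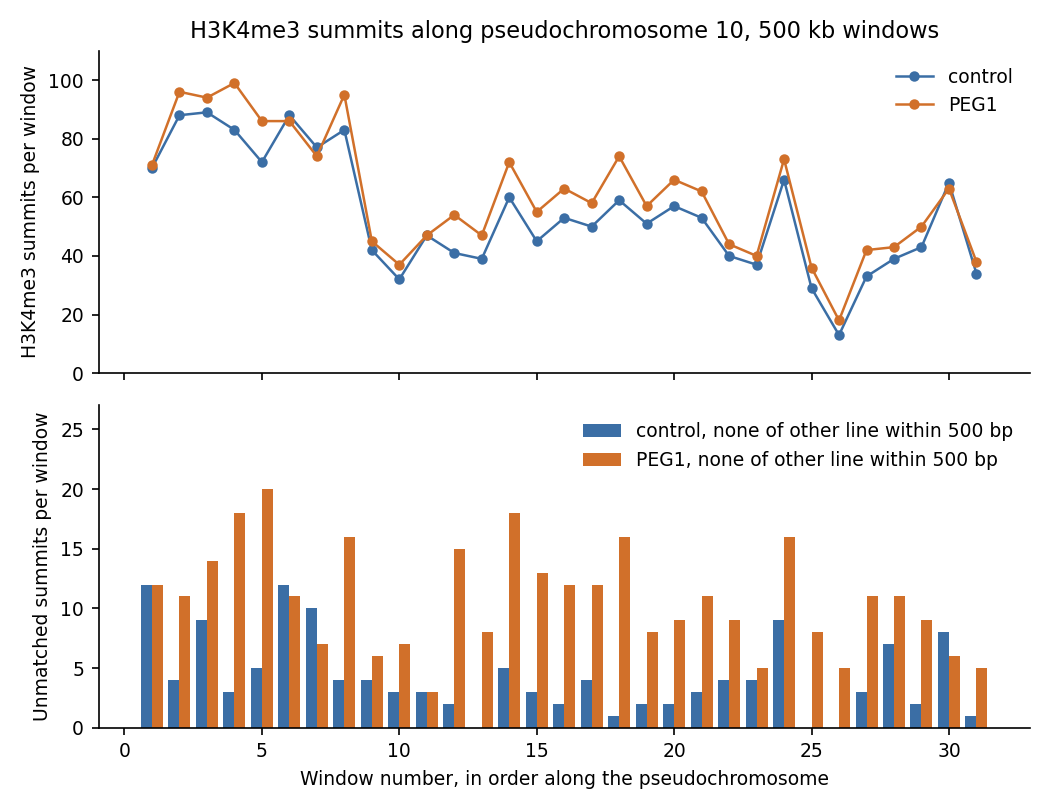
Upper panel: H3K4me3 summits in each of the 31 full 500 kb windows (y axis, count) in order along pseudochromosome 10 (x axis, window number), control in blue and PEG1 in orange. Lower panel: summits of each line with no summit of the other within 500 bp. Both lines drop after window 8, are lowest in window 26 (13 and 18 summits) and mostly rise and fall together.

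The fullest windows by the sum of both lines followed one another. From 500001 to 1000000 there were 88 control and 96 PEG1 summits, from 1000001 to 1500000 there were 89 and 94, and from 1500001 to 2000000 there were 83 and 99. The emptiest window, from 12500001 to 13000000, held 13 control and 18 PEG1 summits. Next came its neighbour from 12000001 to 12500000, with 29 and 36, and the window from 4500001 to 5000000, with 32 and 37. Taken within each line, the fullest window of the control (89 summits) held 6.85 times as many as its emptiest (3.81 to 13.4). The fullest of PEG1 (99 summits) held 5.50 times as many as its emptiest (3.31 to 9.66). These ratios hang on where windows begin: shifted by 250 kb, they were 13.7 and 14.4.

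Both lines mostly rose and fell together along the windows. Window counts of control and PEG1 had a Pearson r of 0.971 and a Spearman rho of 0.9745 over the 31 windows, which share the underlying sequence and the peak caller. PEG1 had more summits in 27 windows, fewer in 3 and as many in 1. Its share of the summits of both lines averaged 53.2% over windows with an SD of 2.20 percentage points, and ran from 49.0% to 58.1%. The exact binomial interval of all 31 windows held 52.9%, the share over the whole pseudochromosome. These intervals treat summits shared by the lines as independent. They are wide beside the SD of 2.20 points, so all 31 holding this value does not show an even share. The highest shares belonged to windows with few summits: the emptiest window (58.1%, interval 39.1 to 75.5), that from 5500001 to 6000000 (41 control and 54 PEG1 summits, 56.8%) and that from 13000001 to 13500000 (33 and 42, 56.0%). The lowest were from 3000001 to 3500000 (77 control and 74 PEG1, 49.0%), from 14500001 to 15000000 (65 and 63, 49.2%) and from 2500001 to 3000000 (88 and 86, 49.4%).

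Median summit strength had a rank correlation near 0 with density over the windows. The deposited score is the −log10 of a p or q value and rises with library depth, so it was read within each line. In blocks of 2 Mb the median control score lay between 12.9 in the densest block, the first, and 16.1 from 8 to 10 Mb. In PEG1 it lay between 14.5 from 12 to 14 Mb and 22.7 from 4 to 6 Mb. The count and the median score of the 31 windows had a Spearman rho of -0.096 in the control and -0.118 in PEG1, given as a description over windows of 1 library. The block from 12 to 14 Mb was the sparsest in both lines, with 114 control and 139 PEG1 summits against 330 and 360 in the first.

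Long stretches without any summit lay mostly beyond 11 Mb. Neighbouring summits were over 50 kb apart at 25 places in the control and at 19 in PEG1, or 24 in PEG1 with its list cut to the control length. Together these gaps took up 2285 kb of the control span, 14.4%, and 1919 kb of the PEG1 span, 12.1%. Beyond 11 Mb, with the last summit at 15.9 Mb, began 14 of the control and 12 of the PEG1 gaps, and none lay in the first 4 Mb. Both limits were chosen with these data known. The first 4 Mb were set apart for their many summits, which leaves little room for long gaps there. Only 4 gaps in each line exceeded 100 kb. Read coverage and runs of undetermined bases in the assembly were not analysed here, so an empty stretch is one without a called summit.

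The longest gap ran from 12216031 to 12634689 in the control, 418.7 kb, and from 12215914 to 12634882 in PEG1, 419.0 kb. The second ran from 12911445 to 13181890 in the control, 270.4 kb, and began later in PEG1, at 12920496, where PEG1 had a summit of score 12.3 that the control lacked; it measured 261.4 kb. Between them lay an island of 277 kb with 13 control summits, all with a PEG1 summit within 500 bp. PEG1 had 18 summits in its island of 286 kb, 5 of them unmatched. Over the 966 kb from the first edge to the last edge, these were all the summits there were. The third gap, 128.6 kb long in the control from 15763825 to 15892422, was 109.6 kb in PEG1, which had a weak summit (5.74) at 15782770. The last summit of the pseudochromosome closed this gap in both lines.

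The fourth gap ran from 13700324 to 13807980 in the control (107.7 kb) and from 13700230 to 13808029 in PEG1 (107.8 kb). The fifth of the control, from 11418779 to 11512759 (93.98 kb), had its like in PEG1 from 11418766 to 11512771 (94.0 kb). In PEG1 the fifth place went to a gap from 11533659 to 11632192 (98.5 kb), which a single control summit of score 5.20 at 11566966 interrupted.

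Most long gaps were shared by the lines. Each of the 19 PEG1 gaps over 50 kb had a control gap over 50 kb at the same place. Of the 38 edges of these gaps, 29 lay within 150 bp of the control edge, 34 within 500 bp, and 3 over 2000 bp away. Among all PEG1 summits here, 70.8% had a control summit within 150 bp and 82.4% within 500 bp. The edges thus matched about as often as other summits. No summit of the other line lay inside 17 of the 19 PEG1 gaps and inside 17 of the 25 control gaps, and the other 2 and 8 held 1 each. In 6 of the control gaps such a PEG1 summit left no PEG1 gap over 50 kb. Examples are the summit at 10304925 (score 5.15) inside a control gap of 76.4 kb and that at 6063010 (5.12) inside one of 72.4 kb. They ranked 1683 and 1686 among the 1900 PEG1 summits by score. The other 4 scored 2.56 at 12779857, 3.16 at 4975933, 5.69 at 14086827 and 15.98 at 5783553, the last nearest to the PEG1 median of 18.5.

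**Figure D2:**
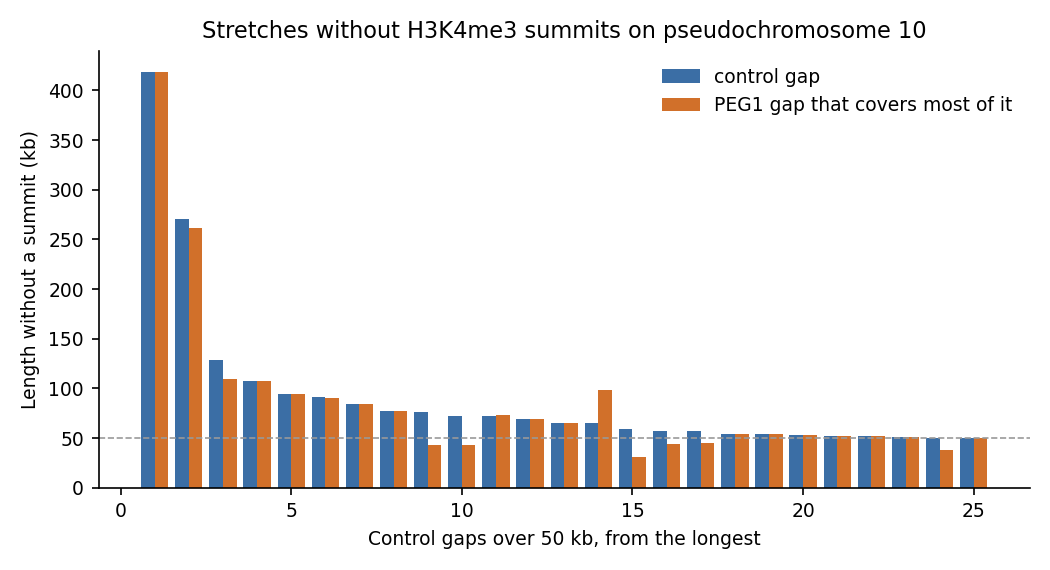
Length without a summit (y axis, kb) for the 25 control gaps over 50 kb, ordered from the longest (x axis), with the PEG1 gap that covers most of each. Blue bars are control and orange bars PEG1; the dashed line marks 50 kb. Most pairs of bars are equally high, and in 6 the PEG1 gap falls below 50 kb.

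At the resolution of 100 kb the lines occupied the same bins. Of 158 bins, 4 were empty in both lines, and none held summits of 1 line alone. These bins are far wider than the mean spacing, 9402 bp in the control and 8367 bp in PEG1. This agreement is therefore largely set by the bin size. Of 794 bins of 20 kb, 125 were empty in both, 3 held control summits alone with at most 1 each, and 23 held PEG1 summits alone with at most 3. The fullest 100 kb bin, from 1000001 to 1100000, had 25 summits in each line. The fullest 20 kb bin, from 3840001 to 3860000, had 9 in each.

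Dense runs were short, and most lay in the first 4 Mb, where summits were densest. A dense run was a stretch of at least 5 summits, each within 3 kb of the next. The control had 13 runs with 68 summits, 4.02% of its summits on 0.520% of the span. PEG1 had 19 with 109 summits, 5.74% on 0.933%. The PEG1 list is the longer one, and runs were not counted again with it cut to the control length. Within the first 4 Mb lay 10 of the control (76.9%) and 12 of the PEG1 runs (63.2%), and 2 in each line began beyond 12 Mb. The first 4 Mb also held 38.4% of the control and 36.9% of the PEG1 summits. That limit was chosen from the counts of the same summits. Of the control runs 7 overlapped a PEG1 run, 53.8%, and 7 of the PEG1 runs overlapped a control run, 36.8%. How many runs are counted follows the distance: there were 2 and 4 with 2 kb, and 28 and 47 with 4 kb.

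The fullest control run, from 3844954 to 3856198, held 7 summits with scores of 5.24 to 31.8, all with a PEG1 summit within 500 bp. PEG1 had 8 summits there, from 3844960 to 3856166, its second-fullest run. The second control run, from 13181890 to 13189707, stood by itself: it began at the end of the 270.4 kb gap and was followed by 45.15 kb without a summit. PEG1 had the same number, 6, from 13181865 to 13189717. Its edges lay within 25 bp of the control's. The other 11 control runs had 5 summits each, and the shortest of them ran from 1706193 to 1709973, from 2566024 to 2570343 and from 913992 to 918436.

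The fullest PEG1 run held 10 summits in 17.1 kb, from 1758202 to 1775296, where the control had 7. Its scores ran from 3.03 to 28.0, and 3 of the 10 were unmatched. From 11751292 to 11765409 PEG1 had 7 summits and the control 8, which did not all lie within 3 kb of the next and formed no run. Of 4 PEG1 runs with 6 summits the shortest ran from 14394914 to 14401209, where the control had 3, and from 8709443 to 8716590, where the control had 4. The run at 14394914 opened with a strong summit (score 43.5) at the far edge of a 73.0 kb gap, and the 3 unmatched summits behind it scored 5.69 or less.

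Neighbouring summits of the same line were at least 420 bp apart in the control and 375 bp in PEG1, more than the DNA of a single nucleosome and its linker. The median distance was 5402 bp in the control (95% interval from order statistics 5011 to 5754) and 4737 bp in PEG1 (4489 to 5095). Among the middle distances, the 25th and 75th percentiles were 2574 and 11128 bp in the control and 2300 and 9962 bp in PEG1. The mean, 9402 and 8367 bp, was far above the median, since distances over 20 kb, 10.6% and 8.58% of all, took up 41.9% and 37.7% of the span. With the PEG1 list cut to the control length the PEG1 median was 5564 bp, above that of the control.

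**Figure D3:**
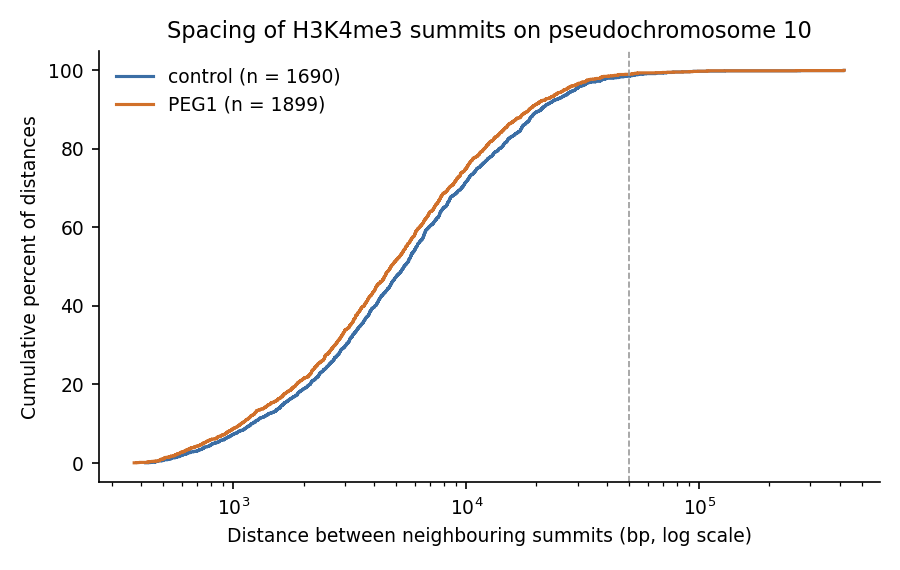
Cumulative percent of the distances between neighbouring summits (y axis) against distance in bp (x axis, log scale) for the control (blue, n = 1690) and PEG1 (orange, n = 1899); the dashed line marks 50 kb. The PEG1 curve lies slightly to the left of the control curve over most of the range, with medians of 4737 and 5402 bp.

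Short distances were spread evenly from 600 to 1200 bp. In the steps of 200 bp from 400 to 1200 bp, the control had 33, 44, 47 and 45 neighbouring pairs, and PEG1 had 50, 60, 53 and 64. Below 400 bp there were 0 and 3. Pairs within 1000 bp numbered 124 in the control, 7.34% of all distances, and 166 in PEG1, 8.74%. They were not counted again with the longer PEG1 list cut to the control length. Sorted within each pair, which sets a gap by construction, the stronger members had a median score of 16.5 and the weaker 6.44 in the control, and 21.4 and 7.44 in PEG1.

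Many of these close pairs were single in the other line. Both members had a partner there, meaning mutual nearest summits within 500 bp, in 78 of the 124 control pairs (62.9%, 54.1 to 70.9) and in 75 of the 166 PEG1 pairs (45.2%, 37.8 to 52.8). Just 1 member had a partner in 44 control and 80 PEG1 pairs. The member without one was the weaker of the pair in 35 of the 44 and in 69 of the 80.

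Crowded summits had lower median scores and a lower matched share than spaced ones in both lists. Summits with a neighbour of the same line within 1000 bp had a median score of 10.0 in the control (n = 240) and 13.8 in PEG1 (n = 322). Those whose nearest neighbour lay between 3000 and 10000 bp away had medians of 16.1 (n = 687) and 21.5 (n = 710). The share matched within 150 bp was 71.3% (65.2 to 76.6) against 84.3% (81.4 to 86.8) in the control, and 62.7% (57.3 to 67.8) against 74.9% (71.6 to 78.0) in PEG1. Isolated summits, over 10000 bp from any neighbour, had medians of 14.4 (n = 163) and 18.5 (n = 147), at the medians of all summits.

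Most summits of 1 line had a counterpart in the other. Within 150 bp, about the DNA of 1 nucleosome, 1345 summits had a counterpart, 79.5% of the control list (Wilson interval 77.55 to 81.4) and 70.8% of the PEG1 list (68.7 to 72.8). Over all pseudochromosomes the shares were 79.1% and 69.5%, so number 10 lay near the background. Within 50 bp it was 57.4% and 51.1%, and within 500 bp 92.2% and 82.4%. As many summits were matched in one list as in the other, so the order of the shares restates which list is longer. With the PEG1 list cut to the control length they were 76.8% and 77.45%.

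Most paired summits lay within 50 bp of each other. There were 1555 mutual nearest pairs within 500 bp, 91.96% of the control and 81.8% of the PEG1 summits. Their median distance was 35 bp (32 to 38), and 25% lay within 14 bp, 75% within 82 bp and 90% within 192.2 bp. The same base was the summit in 27 pairs. No side was preferred: the PEG1 summit had the higher coordinate in 767 pairs and the lower in 761, and the median signed offset was 0 bp (-2 to 2).

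**Figure D4:**
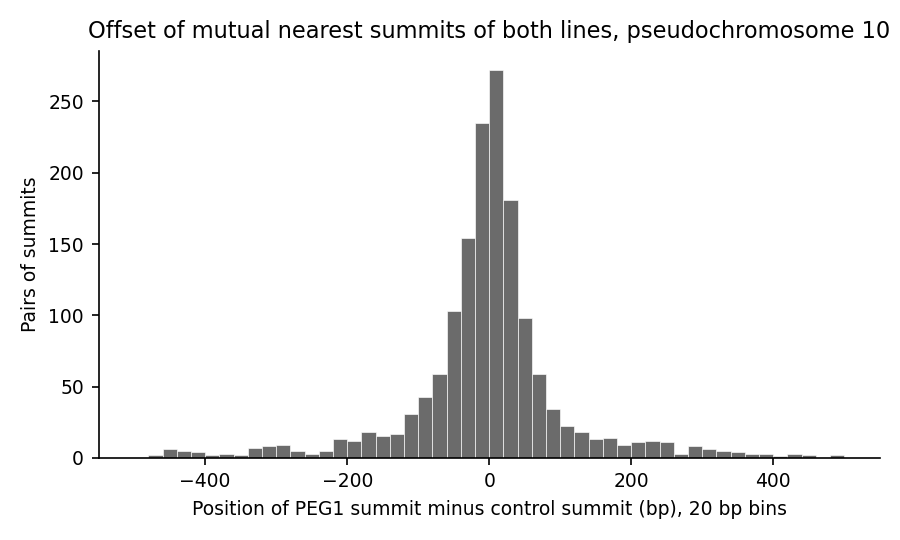
Number of mutual nearest pairs (y axis) by the position of the PEG1 summit minus that of the control summit (x axis, 20 bp bins) for the 1555 pairs within 500 bp. The distribution is centred on 0; the bin from 0 to 20 bp, with 272 pairs, includes the 27 pairs with the same base, and the bin from -20 to 0 bp has 235.

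Strong summits were placed more tightly than weak ones. The summits of each line were divided by score into 4 classes of nearly equal size. The median distance within pairs fell from 53.5 bp in the weakest control class to 40, 36 and 24 bp in the strongest, and from 51 bp to 41, 38 and 25 bp over the PEG1 classes. The 90th percentile was 228.2 bp in the weakest and 106.1 bp in the strongest control class.

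Between 130 and 250 bp apart, a distance near that of neighbouring nucleosomes, were 146 pairs, 9.39% (8.04 to 10.9). The 20 bp bins from 120 to 240 bp held 9 to 18 pairs with PEG1 at the higher coordinate and 5 to 18 with PEG1 at the lower. The 5 pairs of 130 to 250 bp with the highest score ranks all had the PEG1 summit at the lower coordinate. They lay at 1110538 in the control and 1110402 in PEG1 (136 bp), at 11892539 and 11892331 (208 bp), at 8644865 and 8644674 (191 bp), at 1204761 and 1204588 (173 bp), and at 8566882 and 8566672 (210 bp). The strand of the genes nearby was not used here, so these shifts cannot be read as upstream or downstream.

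The strongest sites were common to both lines. The best control summit, at 4324643 (score 94.3), was the second of PEG1, at 4324629 (95.96). The best of PEG1, at 3757968 (97.3), was the second of the control, at 3757897 (84.1). The summits at 2118293 in the control (82.8) and 2118252 in PEG1 (91.0) ranked 3 and 4. That at 7504807 in the control (69.3) and 7504785 in PEG1 (93.4) ranked 5 and 3. The other members of the best 5 were 9593505 in the control (75.6), which ranked 9 in PEG1, and 1469223 in PEG1 (87.9), which ranked 9 in the control. All lay within 71 bp of their counterpart, and none had a neighbour of its own line closer than 2883 bp.

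Score ranks followed each other over the whole range. Over the 1555 pairs the Spearman rho of the scores was 0.833, a description over sites of the same 2 libraries. The median rank difference was 10.1 percentile points, and 9 pairs, 0.579%, differed by over 50. Of these 5 ranked higher in PEG1 and 4 in the control. The largest shifts towards PEG1 were at 10005989 in the control (score 3.25, percentile 2.93) and 10005924 in PEG1 (24.9, percentile 57.4), at 7068695 (11.4, percentile 35.0) and 7068744 (41.99, percentile 86.98), and at 6141573 (7.08, percentile 17.3) and 6141608 (30.4, percentile 69.2). The largest towards the control were at 2804088 (30.7, percentile 86.1) and 2804091 (10.9, percentile 18.6), at 2252614 (21.1, percentile 68.0) and 2252521 (7.93, percentile 10.5), and at 3512261 (29.4, percentile 84.4) and 3512302 (14.96, percentile 29.6). These pairs were picked as extremes, and no test was possible.

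Among the best-scored 10% of each line, 167 of 169 control and 188 of 190 PEG1 summits were in a pair. In 109 pairs both members belonged to this set, 64.5% of the control and 57.4% of the PEG1 set.

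Unmatched summits, with none of the other line within 500 bp, numbered 132 in the control and 335 in PEG1. That is 7.81% of the control summits (6.62 to 9.18) beside 7.76% over all pseudochromosomes, and 17.6% of the PEG1 summits (15.98 to 19.4) beside 18.7%. Both shares were near the background. Over 2000 bp from the other line were 43 control summits, 2.54% (1.89 to 3.41), beside 2.06% over all pseudochromosomes, and 174 PEG1 summits, 9.16% (7.94 to 10.5), beside 10.4%.

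Unmatched summits were weak. Their median score was 5.20 in the control and 5.69 in PEG1, against 15.25 and 21.8 for the other summits. In the weakest score class 21.7% of the control (18.1 to 25.9) and 52.0% of the PEG1 summits (47.5 to 56.5) were unmatched, and in the strongest 1.90% (0.964 to 3.70) and 1.68% (0.856 to 3.29). Among those over 2000 bp away, 40 of the 43 control and 139 of the 174 PEG1 summits came from the weakest class. None came from the strongest. PEG1 has the longer list, and line and list length cannot be told apart in these shares.

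**Figure D5:**
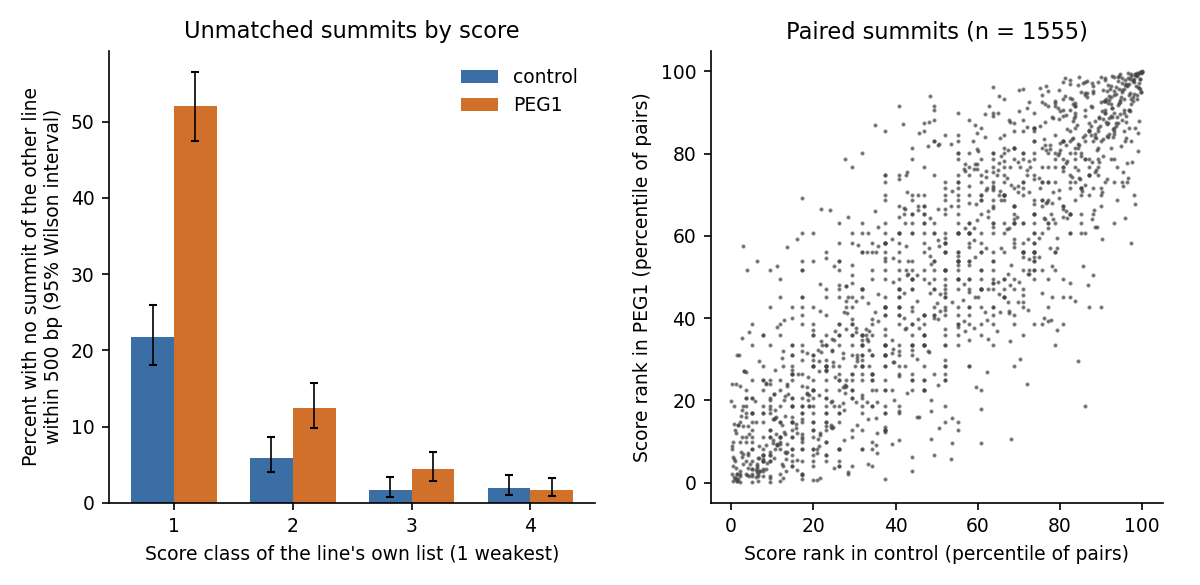
Left: percent of summits with none of the other line within 500 bp (y axis, bars with 95% Wilson intervals) by score class of the line's own list (x axis, class 1 weakest). Right: score rank of the 1555 pairs in the control (x axis) and PEG1 (y axis), in percentiles of the pairs. In class 1, 21.7% of control and 52.0% of PEG1 summits are unmatched, and both are under 2% in class 4.

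The strong unmatched summits mostly lay between 500 and 1000 bp from the other line. Only 14 control and 29 PEG1 unmatched summits scored above the median of their line. Of these 13 and 22 lay within 1000 bp of the other line, and 0 and 5 over 2000 bp away. The best of the control, at 3187929 (score 45.1), and the best of PEG1, at 3188684 (46.8), were each other's nearest counterpart at 755 bp. The same held at 7361257 in the control (33.1) and 7360637 in PEG1 (40.5), 620 bp apart, and at 13663325 (29.6) and 13662527 (39.7), 798 bp apart. Mutual pairs between 500 and 1000 bp apart numbered 24, or 18.2% of the unmatched control and 7.16% of the unmatched PEG1 summits.

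The other named control summits were at 14629979 (34.6), 915 bp from a PEG1 summit, and at 369197 (28.7), 595 bp away. The other PEG1 summits were at 5529120 (45.6), 944 bp from a control summit, and at 11867035 (38.5), 552 bp away. The summits farthest from the other line were weak. In the control they were at 11566966 (score 5.20, 33.3 kb away), 10530932 (5.80, 13.8 kb) and 7917355 (3.49, 12.9 kb). In PEG1 they were at 10304925 (5.15, 32.9 kb), 6063010 (5.12, 29.3 kb) and 14086827 (5.69, 27.7 kb).

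Most unmatched summits stood singly. Only 7.81% of the control and 17.6% of the PEG1 summits were unmatched, so most would stand singly under scattered placement too. In the control 112 stood alone between matched neighbours and 10 times 2 followed each other, with no longer series. In PEG1 241 stood alone, 31 times 2 followed each other, and 10 series held 3 or 4. The series of 4 ran from 8925027 to 8948035, with scores of 3.45 to 18.5, and from 11513895 to 11533659, with scores of 3.70 to 19.3. Inside the second lay 1 control summit, at 11524241, with a score of 19.5. Along the pseudochromosome the unmatched share of PEG1 was lowest from 14 to 16 Mb, 13.9% (exact interval 8.99 to 20.1), and highest from 12 to 14 Mb, 25.2% (18.2 to 33.2). In the control it was lowest from 8 to 10 Mb, 4.15% (1.91 to 7.73), and highest from 10 to 12 Mb, 10.2% (6.35 to 15.3). The PEG1 extremes had overlapping intervals, as did those of the control, which does not show that the shares were equal. These blocks were picked as extremes, and no test was made.

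The last summit of number 10, at 15.9 Mb, was the nearest to the start among the 11 pseudochromosomes. Up to the last summit it had 106.4 control and 119.6 PEG1 summits per Mb, in both lines the third-highest value after numbers 3 and 6. The PEG1 median spacing was the shortest of the 11 and that of the control the second shortest after number 3 (5288 bp). The longest gap of number 10, 418.7 kb in the control, was exceeded by 674.8 kb on number 1. No other number had fewer gaps over 50 kb than its 25 in the control and 19 in PEG1, and its span was the shortest. The SD of its counts per 500 kb window was 36.7% of the mean in the control and 33.9% in PEG1. These values ranked 5 and 6 among the 11, so its uneven density was not exceptional. The ratio of PEG1 to control summits, 1.12, lay within the range of 1.12 to 1.17 of the other numbers. These positions in the order were not tested.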

How the data were processed

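H3K4me3 was profiled by native ChIP-seq in leaves of a control and a PEG1 line, 1 library each; values of the no-antibody library of the control were not analysed here. The authors deposited lists of peak summits on the B. rapa reference, called with MACS2 version 2.0 per the submitters' processing notes, each with a score on a −log10 scale of p or q values as deposited by the authors; which of these is not stated. The aligner, use of the background library, handling of reads that fit both subgenomes, and filters remain not given in the sources used here. Read depth, and so the precision it gives, is unknown. The lists against B. oleracea were not used.

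Summits on the sequence ending in Chr10 were counted in 500 kb windows, spaced, and matched to the nearest summit of the other line. A match was 150 bp or less and an unmatched summit had none within 500 bp. Background shares come from all 11 pseudochromosomes. Shares carry Wilson, windows and blocks exact binomial, and ratios exact conditional 95% intervals, which treat neighbouring and shared summits as independent. No test between lines was possible. Named are the 5 best summits, longest gaps and fullest runs (ties by shorter span) of each line, the 3 extreme windows in each direction, the 5 best and 3 farthest unmatched summits, the 3 largest rank shifts and the 5 best displaced pairs. Members, rules and distances were chosen with earlier results of these data known. Alternatives were other distances, windows, gap lengths, score thresholds and list lengths. The matching code was checked on simulated data with small shifts and well-separated summits, which does not cover close pairs or larger shifts. SciPy 1.17.1, pandas 2.3.3 and NumPy 2.4.6 were used in Python 3.11.15, with matplotlib 3.10.9 for figures.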

Additional observations from a re-analysis of the deposited data

How the results depend on the processing

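Of 45 alternative values, 14 stayed within the interval of the reported value or, for counts, within 1.5 times, 30 moved and 1 turned. The ratio of PEG1 to control summits fell below 1, to 0.991, with the PEG1 list cut to the control length over the whole reference, a setting that holds it near 1 by construction. The same setting gave 76.8% of control and 77.45% of PEG1 summits matched and a PEG1 median spacing of 5564 bp. At a limit of 50 bp the matched share was 57.4% in the control and 51.1% in PEG1; at 300 bp it was 87.9% against 78.3%, at 500 bp 92.2% against 82.4%, at 1000 bp 96.1% against 87.4%. Unmatched control summits numbered 66 at 1000 bp, 43 at 2000 bp and 15 once weaker summits than the median were dropped; unmatched PEG1 summits numbered 174 at 2000 bp and 31 without the weaker ones. Dropping weaker summits thins the lists by construction. It gave median spacings of 11275 bp in the control and 9617 bp in PEG1 and a median offset of 27 bp. Gaps over 100 kb numbered 4 in each line, and PEG1 gaps over 40 kb 29. Dense runs numbered 2 in the control and 4 in PEG1 within 2 kb, and 28 and 47 within 4 kb. With windows shifted by 250 kb the fullest held 13.7 times the emptiest in the control and 14.4 times in PEG1; windows of 200 kb gave no ratio, since some were empty. The SD of the PEG1 share was 3.37 points in windows of 200 kb and 1.48 in windows of 1000 kb. The causes were not tested. No library could be left out and no paired analysis was possible because each line has 1 library. Depth is unknown, which limits any reading of weak summits present in a single line.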

Other observations

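Scores were often tied. The 1691 control summits had 537 distinct scores, and 1314 of them, 77.7%, shared their score with another summit of the line; the 1900 PEG1 summits had 664, and 1420, 74.7%, shared theirs. The most frequent control score, 12.1, stood at 49 summits and the most frequent PEG1 score, 16.1, at 34. The medians of the lines on pseudochromosome 10, 14.4 and 18.5, equalled those of the whole lists to 3 digits. Ranks of tied summits are shared ranks.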
